A study of Drosophila melanogaster with 6 samples.

Results

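The 10 genes described here encode the core of the synaptic vesicle release machinery of *Drosophila melanogaster*: nSyb, Syx1A, Snap25, Syt1, cpx, Rop, unc-13, brp, Rim and Syn. They were chosen by name from what is known of their function, at a time when earlier results of these data were known. Their gene identifiers matched 10 of the 17489 genes listed in the count tables. The experiment was set up to profile ribosome-associated RNA from the heads of male flies. Of the 6 libraries, 3 came from a control diet with 5% sucrose (Pcl_CD) and 3 from a sugar diet with 30% sucrose (Pcl_SD). The diets ran for 7 days, from day 5 to day 12 of adult life, and each biological replicate was made from 300 heads. In both groups the *Gr5a* promoter drove GAL4, and through it a FLAG-tagged ribosomal protein (UAS-Rpl3-3XFLAG), so that ribosomes of the sweet-sensing neurons could be pulled down. All flies of both groups also carried the Pclc429 mutation. *Pcl* encodes Polycomblike, an accessory factor of Polycomb Repressive Complex 2, which deposits a repressive methyl mark on histone H3. Flies with an intact *Pcl* gene were not analysed here, so the comparison is of diets within *Pcl* mutants. The labels give the cell type as *Gr5a* sensory neurons. Whether a given library came from the pulled-down or the total RNA of the lysate is not stated there.

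Neurons pass signals on by fusing transmitter-filled vesicles with the membrane of the nerve terminal. A SNARE protein on the vesicle zippers together with SNAREs on the membrane to drive fusion, a calcium sensor on the vesicle times it, and priming factors and active zone scaffolds hold vesicles ready next to calcium channels. In taste neurons, as in other neurons, this step carries the response of the receptor cell to the next cell in the circuit. The question asked of these genes was at what level they were read and whether those levels were stable between the diets.

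Depth ranged from 12617127 counts in genes in Pcl_CD replicate 2 to 24076315 in Pcl_CD replicate 1, and the sense strand held 97.0% to 97.3% of stranded counts. Markers of the labelled cell type were near absent. The 4 sweet neuron receptors *Gr5a*, *Gr61a*, *Gr64a* and *Gr64f* summed to 18 to 43.3 normalized counts per Pcl_CD library and 7.44 to 41.6 per Pcl_SD library, and *Gr5a* was at 0 in Pcl_CD replicate 2. General neuron markers were abundant (6 of 7 matched, summing to 113575 to 135514 normalized counts per library), as were 6 photoreceptor markers (476556 to 711033) and 7 glia markers (34845 to 42675). RNA of other cells of the head was thus present, and the share of the values below that came from *Gr5a* neurons was not tested. In such bulk samples, fewer cells of a type and less RNA per cell cannot be told apart. Several libraries stood apart. In Pcl_CD replicate 2 the 3 yolk protein genes summed to 44644 normalized counts, 4678 in Pcl_CD replicate 3 and 880 in Pcl_CD replicate 1, against 618 to 746 in the Pcl_SD libraries. Testis markers summed to 116 to 129 in Pcl_CD against 1090, 1745 and 3173 in Pcl_SD replicates 1 to 3, and accessory gland markers to 3.02 to 35.9 against 1021, 951 and 2673. Gut markers summed to 128 to 644 in Pcl_CD against 1397 to 3692 in Pcl_SD. The fat body marker *Lsp2* split across both diets, at 10962, 10070 and 84.6 in Pcl_CD and 10702, 49.7 and 38.7 in Pcl_SD.

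None of the 10 release machinery genes passed the test for a difference between diets. Fitted log2 fold changes (Pcl_SD over Pcl_CD) ran from −0.20 for nSyb to 0.044 for Rop, with standard errors of 0.089 to 0.11. The test was the two-sided Wald test of DESeq2, adjusted over all genes, with a gene called at q under 0.1. Of all genes tested 14.5% were called, 1990 of them higher and 77 lower on the sugar diet. All 10 members had a mean of at least 1000 normalized counts, and of such well counted genes 2.60% were called, so a count of 0 in 10 members lies close to that background. At an unadjusted p under 0.05 DESeq2 named 1 member, nSyb, against 16.3% of all genes. The quasi-likelihood test of edgeR named 0 members at q under 0.1, against 13.9% of the genes it tested. At an unadjusted p under 0.05 edgeR named 0 members, against 18.7%. For the unadjusted p and for edgeR the share of the well counted genes was not computed, so these shares are not a like background for the members. With Pcl_CD replicate 2 and Pcl_SD replicate 3 both left out, an alternative chosen after seeing the data, 0 members were called as well.

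A lack of a call does not show stability, so an equivalence test was applied, in which a gene passes when a change of 1.5-fold or more in either direction is rejected at q under 0.1. All 10 members passed, with q from 5.59e-08 for Rim to 0.000346 for cpx from the DESeq2 estimates. The 95% intervals of the 10 fold changes together spanned 0.764 to 1.19. This too is what well counted genes showed in these libraries: 40.6% of all genes with a count passed, but 94.5% of the 2886 genes with a mean of at least 1000. With a margin of 1.25-fold, an alternative chosen after seeing the data, 5 members passed, namely Syt1, brp, Rim, Rop and Syn, where 5.93% of all genes and 31.3% of the well counted genes did. For nSyb, cpx, Snap25, unc-13 and Syx1A, changes beyond 1.25-fold were not rejected. The sign of the estimates depended on the scaling, with 8 negative and 2 positive by size factors but 2 negative and 8 positive when libraries were scaled by total counts, which raised the median of all genes by 0.14. Relative to all genes the members' median was −0.10 under both scalings. By size factors that value was −0.029 without Pcl_SD replicate 3 and −0.15 without Pcl_SD replicate 2. By size factors the members had a median log2 fold change of −0.085, beside 0.015 over all genes with a count and −0.073 over the well counted genes.

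**Figure D1:**
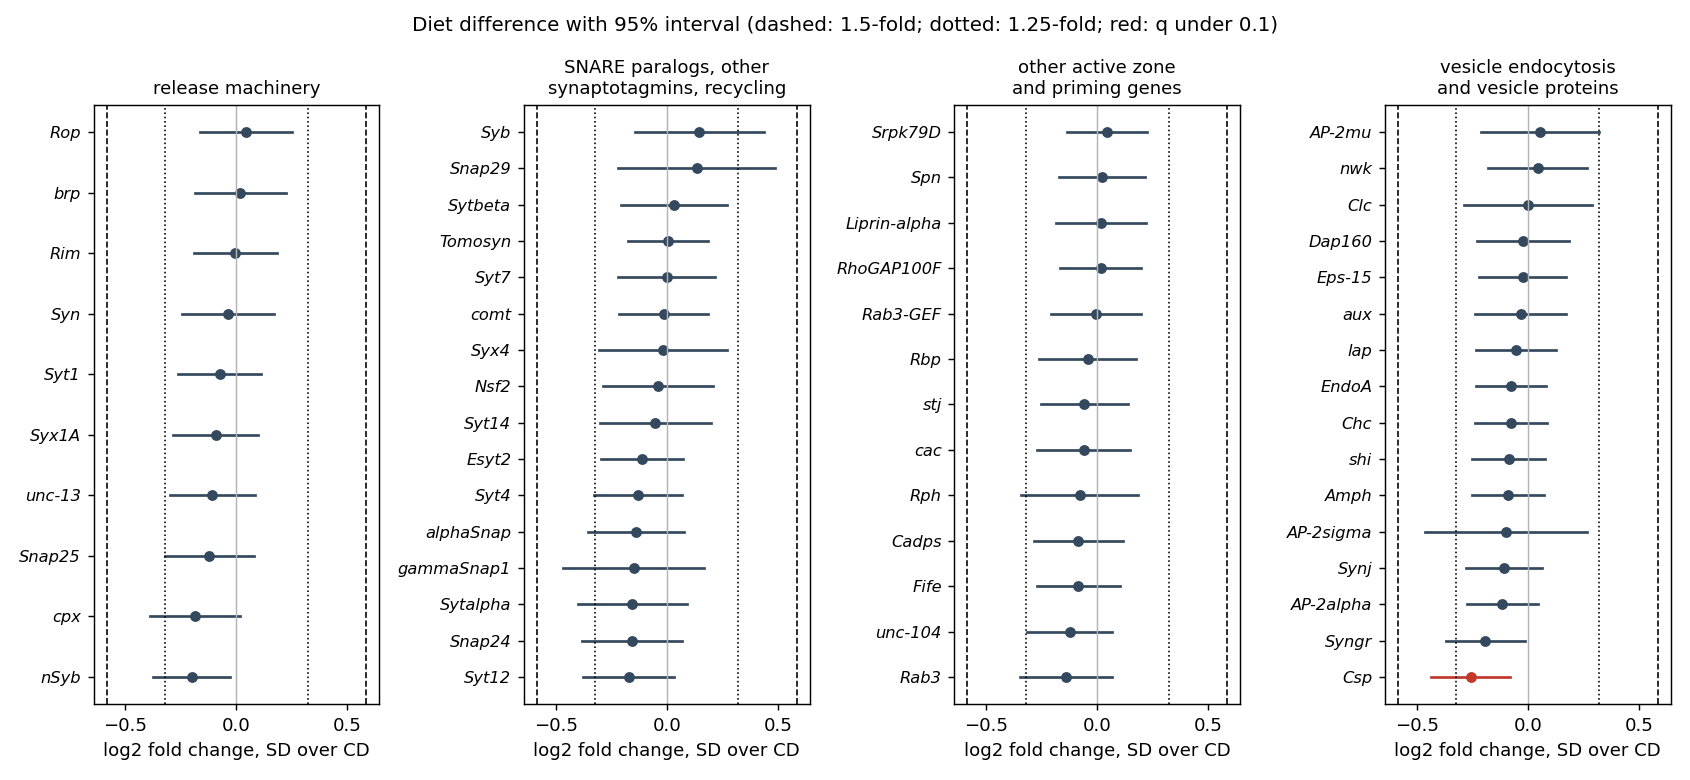
Log2 fold change of Pcl_SD over Pcl_CD (horizontal axis) for the 10 release machinery genes and 45 further presynaptic genes in 3 lists, with the DESeq2 estimate as a point and its 95% interval as a line; dashed lines mark 1.5-fold and dotted lines 1.25-fold. All intervals lie within the dashed lines, and the gene in red, Csp, is the only one with q under 0.1.

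The SNARE proteins come first. nSyb (FBgn0013342; BDGP6 chromosome 3L, 1630348 to 1637752, minus strand) encodes neuronal Synaptobrevin, the SNARE on the vesicle. Its normalized counts were 29011, 29017 and 30554 in Pcl_CD replicates 1 to 3 and 26819, 26738 and 23502 in Pcl_SD replicates 1 to 3. On this scale every Pcl_SD library lay below every Pcl_CD library, and Pcl_SD replicate 3 was the lowest. The means were 29528 ± 889 and 25687 ± 1892 (SD, n = 3 each), a fold of 0.870 with a 95% interval of 0.771 to 0.981. The difference did not survive adjustment (log2 fold change −0.20 ± 0.089 SE, DESeq2 q = 0.15), but with Pcl_SD replicate 1 left out it did, at −0.23 and q = 0.0639. By edgeR q was 0.338. Scaled by total counts the difference of nSyb shrank to −0.069 (DESeq2 q = 0.884), and the diets overlapped, with CPM values of 1543, 1521 and 1767 in Pcl_CD and 1508, 1644 and 1454 in Pcl_SD. By size factors, non-overlap of the diets was common, at 24.1% of all genes and 16.0% of the well counted ones. The 2 of 10 members (nSyb and cpx) without overlap are near that background. When scaled by total counts 0 of 10 lacked overlap, and the share of all genes was not computed on that scale. The marker lists of several head tissues leaned the same way by size factors. All 6 neuron markers had negative estimates (3 of 6 with scaling by total counts), with a median of −0.12 and 0 called. So did 7 of 7 glia markers (median −0.17, *alrm* called), 4 of 4 muscle markers (−0.22, 0 called) and 4 of 6 photoreceptor markers (−0.18, 0 called). Of the fat body markers 3 of 4 were negative (−0.24, *Apoltp* called), among them *Lsp2* at −0.97 ± 2.2 SE, which had no q. The part of these marker lists in the nSyb difference was not tested. Set against *elav*, a pan-neuronal RNA-binding protein gene, the nSyb ratio was 3.11, 3.14 and 3.26 in Pcl_CD and 2.95, 3.00 and 3.19 in Pcl_SD. On that scale the diets overlapped.

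Syx1A (FBgn0013343; chromosome 3R, 24101600 to 24105763, minus strand) encodes Syntaxin 1A, a SNARE anchored in the membrane of the terminal. It read 4264, 3886 and 4609 normalized counts in Pcl_CD and 3980, 4125 and 3856 in Pcl_SD. The diets overlapped, and the lowest Pcl_CD library sat just above the lowest Pcl_SD library (log2 fold change −0.094 ± 0.098, q = 0.796). Of its exon bases 10.7% also lie in eIF4EHP on the same strand, and reads there are left out of the counts of both genes, so its level is an underestimate. Snap25 (FBgn0011288; chromosome 3L, 24074180 to 24299205, plus strand) encodes the partner SNARE that adds a pair of helices to the complex. Its counts were 5468, 5630 and 6149 in Pcl_CD and 5333, 5716 and 4797 in Pcl_SD. Pcl_CD replicate 3 was high and Pcl_SD replicate 3 low, with the other 4 libraries interleaved (−0.12 ± 0.10, q = 0.692).

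Syt1 and cpx act on the assembled SNAREs. Syt1 (FBgn0004242; chromosome 2L, 2772327 to 2799979, minus strand) encodes Synaptotagmin 1, the vesicle's calcium sensor for fast release. Its counts were 24121, 24544 and 24236 in Pcl_CD and 23335, 25092 and 20756 in Pcl_SD. The control libraries were within a coefficient of variation of 0.902%, while the sugar diet libraries held both the highest and the lowest value (9.46%), and the estimate was −0.075 ± 0.095 (q = 0.855). cpx (FBgn0041605; chromosome 3R, 4280221 to 4304604, plus strand) encodes Complexin, which binds the SNARE bundle and, in flies, clamps spontaneous fusion. It read 69613, 66632 and 72918 normalized counts in Pcl_CD and 64684, 65469 and 53708 in Pcl_SD. As for nSyb, the diets did not overlap in normalized counts (they did when scaled by total counts), but the gap between the lowest control and the highest sugar diet library was small and Pcl_SD replicate 3 stood well below the rest. The means of cpx were 69721 ± 3144 and 61287 ± 6575 (SD, n = 3 each). The difference was −0.19 ± 0.10 on the log2 scale (DESeq2 q = 0.344), and −0.055 with scaling by total counts. The ratio of cpx to *elav* was 7.46, 7.21 and 7.77 in Pcl_CD and 7.10, 7.34 and 7.29 in Pcl_SD, and overlapped. As given above, *elav* was itself lower in every Pcl_SD library by size factors.

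Rop and unc-13 prepare vesicles for fusion. Rop (FBgn0004574; chromosome 3L, 4136359 to 4138996, minus strand) encodes the fly Munc18, which holds Syntaxin and templates SNARE assembly. It read 2312, 1978 and 2297 normalized counts in Pcl_CD and 2200, 2383 and 2217 in Pcl_SD. Pcl_CD replicate 2 was the low library, unlike most members, and the estimate was 0.044 ± 0.11 (q = 0.954). unc-13 (FBgn0025726; chromosome 4, 867824 to 912331, minus strand) encodes the fly Munc13, which opens Syntaxin and primes docked vesicles. Its counts were 23616, 26300 and 24104 in Pcl_CD and 23751, 24250 and 20686 in Pcl_SD. Pcl_SD replicate 3 was again the low library, and the other 5 libraries overlapped between diets (−0.11 ± 0.098, q = 0.734). Same-strand transposon entries cover 6.0% of its exon bases.

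The active zone scaffolds had diet estimates close to 0 by size factors, and of 0.16 (brp) and 0.13 (Rim) with scaling by total counts. brp (FBgn0259246; chromosome 2R, 9503765 to 9541565, plus strand) encodes Bruchpilot, the ELKS-related protein that forms the T-bar over the release site. It read 16410, 18450 and 17532 normalized counts in Pcl_CD and 16342, 19773 and 16941 in Pcl_SD. Replicate 2 was the highest library within each diet and the groups overlapped (0.018 ± 0.10, q = 0.986). Rim (FBgn0053547; chromosome 3R, 17872748 to 17916578, minus strand) encodes the scaffold that ties vesicles and priming factors to calcium channels. Its counts were 7712, 8201 and 7721 in Pcl_CD and 7411, 8623 and 7499 in Pcl_SD. The sugar diet libraries lay on either side of the control ones, with an estimate of −0.0058 ± 0.096 (q = 0.998). Syn (FBgn0004575; chromosome 3R, 10190689 to 10222442, plus strand) encodes Synapsin, a phosphoprotein that tethers vesicles in the reserve pool. It read 8528, 8577 and 8010 normalized counts in Pcl_CD and 8198, 9057 and 7237 in Pcl_SD. Pcl_SD replicates 2 and 3 were its highest and lowest libraries, and the diets overlapped (−0.036 ± 0.11, q = 0.964).

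**Figure D2:**
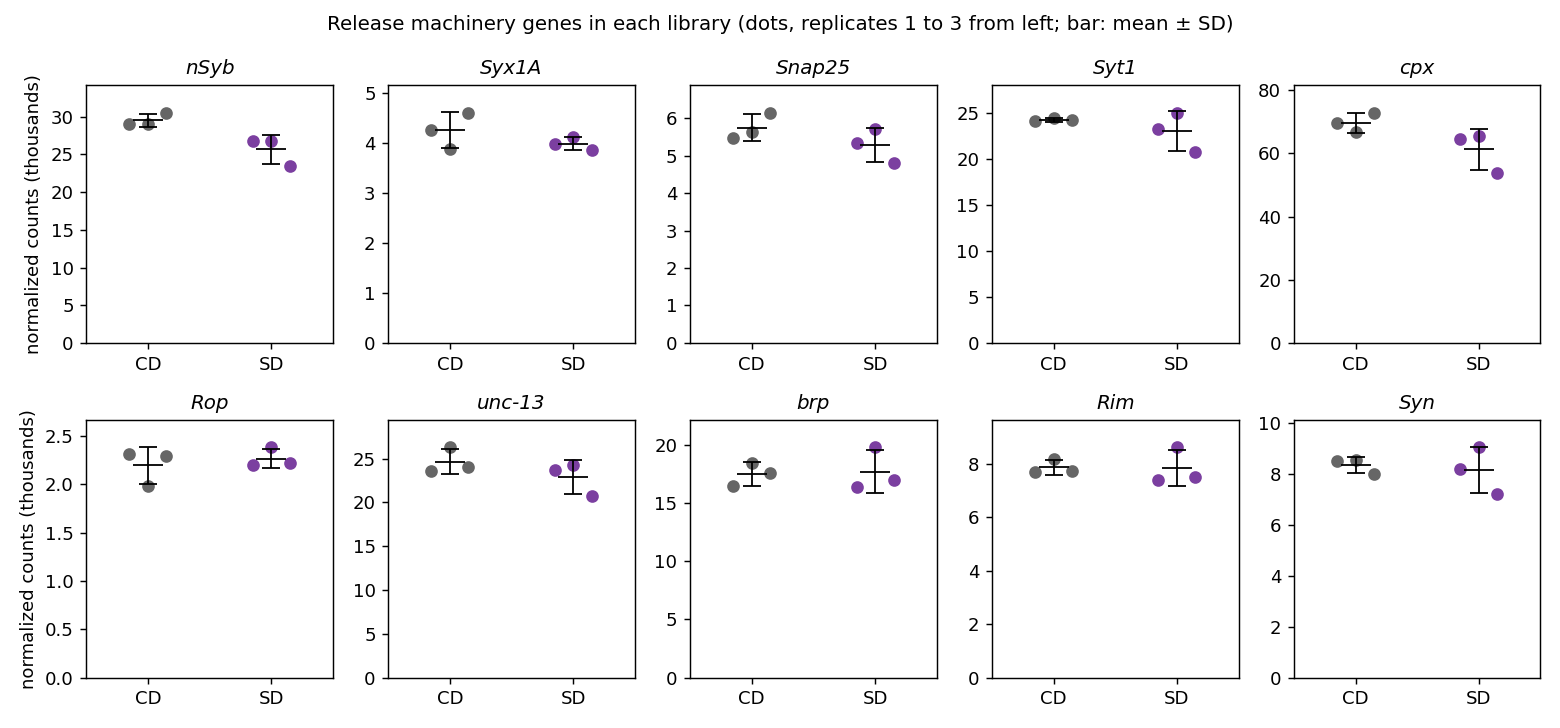
Normalized counts divided by 1000 (vertical axis, from 0) of the 10 release machinery genes in each library, with control diet (CD) in grey and sugar diet (SD) in purple; dots are replicates 1 to 3 from left, and bars give the mean ± SD of 3. For nSyb and cpx the 3 SD dots lie below the 3 CD dots on this scale, though not when scaled by total counts, while for the other 8 genes the groups overlap.

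Reads on the strand opposite to each gene were few. They came to 6.13% of the reads of both strands for Syn, whose exons face *Timp*, and 3.80% for unc-13, which faces annotated antisense RNAs, and to 0.112% to 0.534% for the other 8. In a DESeq2 fit of the opposite-strand counts, 0 members had q under 0.1, 0 had an unadjusted p under 0.05 and the smallest q was 0.999. The share of all genes called in that fit was not computed. Opposite-strand counts per library were only 2 to 21 for Rop and 3 to 10 for Snap25. The counts of 0 are thus given as values only and do not show stability.

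Library by library, the members did not split cleanly by diet. Pcl_SD replicate 3 was the lowest of the 6 libraries for 7 of 10 members (3 of 10 when scaled by total counts). By size factors the same held for 5 of 6 neuron markers. It also held for 7 of 16 SNARE paralogs and recycling genes, 8 of 13 active zone genes and 8 of 16 endocytosis genes described below. The share of all genes lowest in that library was not computed. The members' mean log2 deviation from the control mean was −0.19 in Pcl_SD replicate 3. It was −0.076 in Pcl_SD replicate 1 and 0.029 in Pcl_SD replicate 2, and −0.017, −0.011 and 0.028 in Pcl_CD replicates 1 to 3. Pcl_SD replicate 2, on the same diet, was the highest library for 5 members. Within Pcl_SD replicate 3 the deviations were uneven, from −0.38 for cpx and −0.33 for nSyb to −0.042 for brp and 0.018 for Rop. By size factors that library also had the lowest sums of neuron (113575), glia (34845), photoreceptor (476556) and fat body markers (137206). It had the highest sums of testis (3173), accessory gland (2673) and gut markers (3692). Scaled by total counts, Pcl_CD replicate 1 held the lowest neuron sum (6990 CPM, against 7025 in Pcl_SD replicate 3). The lowest glia sum was then in Pcl_CD replicate 2 (1878 CPM, against 2155 in Pcl_SD replicate 3). The photoreceptor sum (29478 CPM) and the fat body sum (8487 CPM) were still lowest in Pcl_SD replicate 3. The part of the marker sums in the deviation was not tested. With Pcl_SD replicate 3 left out, the median log2 fold change of the members was −0.019 in place of −0.085. The spread over the 6 libraries was near that of other well counted genes, as 7 of 10 members had a coefficient of variation below 7.64%, the median of the well counted genes. Among the 10, Rim had the smallest at 5.89% and cpx and nSyb the largest, at 9.96% and 9.0%.

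**Figure D3:**
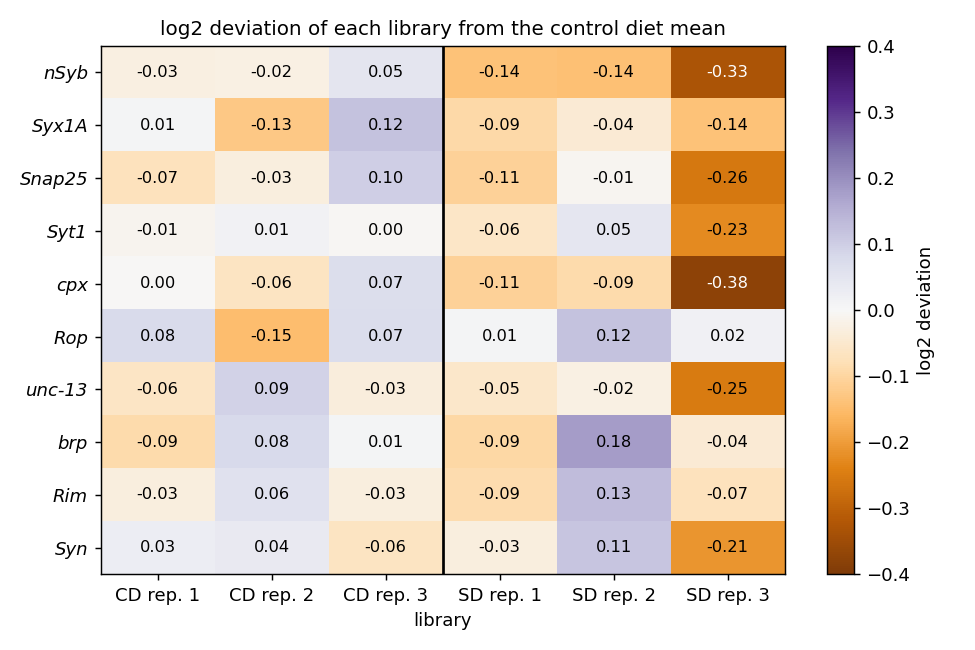
Log2 deviation of each library (columns) from the control diet mean of each gene (rows), in colour and in digits, with a black line between the control (CD) and sugar (SD) diets. SD replicate 3 holds the lowest values of the grid, −0.38 for cpx and −0.33 for nSyb.

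Levels were compared between genes only per kilobase of exon. The vesicle SNARE nSyb had the highest level, at 6780 normalized counts per kilobase over the 6 libraries (range 5772 to 7503), followed by cpx at 5739 (4705 to 6388). Their ranges overlapped, although nSyb was higher in 6 of 6 libraries. The calcium sensor Syt1 followed at 3294 per kilobase and Snap25 at 2417, each separated from its neighbours in the order. The vesicle SNARE was read at a higher density than its membrane partners Snap25 and Syx1A, the latter at 989 per kilobase. Syn (1425) and brp (1314) overlapped, with Syn higher in 5 of 6 libraries, as did unc-13 (1052) and Syx1A, with unc-13 higher in 4 of 6. Rop (846) and Rim (551) closed the order, separated from each other and from the rest. Even Rim lay above 88.3% of the 15880 genes with a count and an annotated length, and nSyb above 98.9%. The order depends on the length used for a gene with long and short isoforms: per kilobase of the longest annotated transcript, unc-13 reached 1842 and moved from rank 7 to rank 5, Syn moved from rank 5 to rank 7, and the other 8 kept their ranks.

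**Figure D4:**
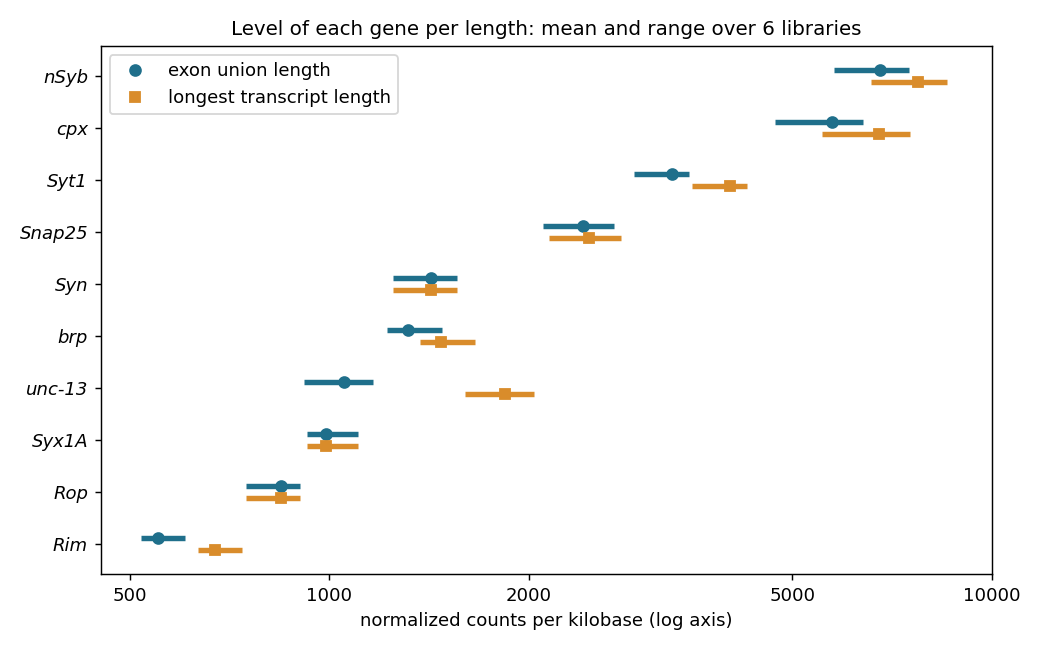
Normalized counts per kilobase (horizontal log axis) of the 10 genes, as the mean (symbol) and range (line) of 6 libraries, with length taken as all exon bases (blue) or as the longest transcript (orange). nSyb and cpx lead at 6780 and 5739, Rim is last at 551, and unc-13 shifts most between the lengths, from 1052 to 1842.

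Other presynaptic genes also differed little between the diets. Of 48 genes in 3 lists, 47 were matched and 45 had a count, with means from 285 to 21864 normalized counts. Of these, 34 had negative and 11 positive estimates (8 and 37 with scaling by total counts), with a median log2 fold change of −0.059 and a range of −0.26 to 0.15. All 45 passed the equivalence test at 1.5-fold (highest q = 0.0203), beside 40.6% of all genes and 94.5% of the well counted genes. At 1.25-fold 18 passed, beside 5.93% of all genes and 31.3% of the well counted genes. The remaining pair, stnA and stnB, were at 0 in every library. Their annotated spans on chromosome X are identical (22980722 to 23004648), and reads shared by genes are not counted in tables of this layout.

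Csp was the single presynaptic gene called, and it was lower on the sugar diet. It encodes cysteine string protein, a vesicle chaperone that keeps SNAREs folded. Its counts were 6027, 6235 and 6801 in Pcl_CD and 5384, 5505 and 5062 in Pcl_SD. By size factors the diets did not overlap, and Csp fell by 0.26 ± 0.091 on the log2 scale (DESeq2 q = 0.0374, beside 0.540% of all genes called lower). Of the well counted genes 2.60% were called in either direction, so 1 call among the 45 wider genes lies close to that background. Csp passed the equivalence test at 1.5-fold as well (q = 0.000868), so the fall was smaller than that margin. The call was not stable. With scaling by total counts the difference was −0.12 (DESeq2 q = 0.736) and the diets overlapped. By edgeR q was 0.109, and by DESeq2 it was 0.11 without Pcl_CD replicate 3 and 0.26 without Pcl_SD replicate 3.

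Among the 16 SNARE paralogs, other synaptotagmins and SNARE recycling factors, 0 were called, 16 passed equivalence at 1.5-fold and the median was −0.045. The highest by mean normalized count were Tomosyn, a SNARE-binding inhibitor of priming (5154, 5509 and 5799 normalized counts in Pcl_CD; 5185, 5713 and 5602 in Pcl_SD), and Syt4, a synaptotagmin of retrograde signalling at the fly neuromuscular junction (−0.13 ± 0.10, q = 0.638). Tomosyn overlapped between diets almost completely, with an estimate of 0.0034 ± 0.092. Of 13 other active zone and priming genes, 0 were called, 13 passed equivalence and the median was −0.059. By mean normalized count they were led by unc-104, the kinesin that carries vesicle precursors down the axon (−0.12 ± 0.098, q = 0.647). Cadps, a factor for release of dense-core vesicles, came next (−0.085 ± 0.10, q = 0.845). Of 16 endocytosis and vesicle genes with a count, Csp alone was called, all passed equivalence and the median was −0.074. The highest by mean normalized count were EndoA, which encodes the membrane-bending protein endophilin (−0.074 ± 0.080), and shi, the dynamin that pinches vesicles off (−0.085 ± 0.084).

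The genes whose profiles most resembled the mean of the members were sought among 7739 other genes with a mean of at least 100 normalized counts, by the root mean square difference of centred log2 values over the 6 libraries. They were nmo (0.0135), which encodes Nemo kinase, sm (0.0163), which encodes the RNA-binding protein Smooth, l(3)L1231 (0.0167), hbt (0.0176) and dpr19 (0.0182), a member of the Dpr family of neuronal surface proteins. Their log2 fold changes between diets ran from −0.094 to −0.052, and none was called. Fold changes near those of the members follow from the selection, which used the same 6 libraries.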

How the data were processed

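RNA was ribo-depleted and sequenced by the authors as stranded libraries, aligned with STAR to dm6 and deposited as raw counts per gene. The methods name HTSeq for counting, while the tables have the layout of STAR. The sense counts (column 3) were used as deposited. Reads that map to several genes or places are not counted in this layout. Symbols matched 17215 of 17489 identifiers, and Ca-beta, para, FASN1 and wupA were not analysed here. Coordinates and lengths are from Ensembl release 115.

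Diets were compared on all 6 libraries with DESeq2 1.42.0 in R 4.3.3 (genes with at least 1 count, Benjamini-Hochberg over all genes, q under 0.1), on values normalized by size factors. Equivalence used the same estimates with a normal distribution. edgeR 4.0.16 was an alternative, with other scalings, filters, strand, margins, thresholds, a replicate block and each library left out. Scripts were tested on simulated data. p-values measure the spread between these samples. The members and lists were chosen with earlier results of these data known. Named genes were all members, per list the called genes and the 2 with the highest mean normalized count (not per length), summed markers, and the 5 nearest profiles. Replicate numbers come from titles alone and are not stated to mark shared animals or days. No sequence file was used here.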

Additional observations from a re-analysis of the deposited data

How the results depend on the processing

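The count of 0 members called held in every alternative on 6 libraries, and leaving out single libraries gave 0 to 1 (nSyb at −0.23, q = 0.0639, without Pcl_SD replicate 1). The 10 members passed 1.5-fold equivalence in every alternative, and with the 1.25-fold margin, chosen after seeing the data, 5 members and 18 wider genes passed. The members' median ranged from −0.13 to −0.019 with single libraries left out and was 0.049 with scaling by total counts, which moved the median of all genes by 0.14. Relative to all genes it was −0.10 under both scalings, but −0.15 to −0.029 with single libraries left out. Signs near 0 turned. With total scaling Syt1 was 0.060, Syx1A 0.038, Snap25 0.010, Rim 0.13, unc-13 0.028 and Syn 0.10, while nSyb and cpx stayed negative at −0.069 and −0.055. With Pcl_CD replicate 2 and Pcl_SD replicate 3 both left out, also chosen after seeing the data, 0 members were called, their median was −0.0068, and Rim was 0.051, unc-13 0.0048, Rop −0.012 and Syn 0.057. Rim was also 0.0015 with TMM scaling, 0.0066 with edgeR and 0.0034 with edgeR and the replicate block. Leaving out single libraries gave −0.069 to 0.073 for brp, −0.079 to 0.034 for Rim, −0.028 to 0.080 for Rop and −0.12 to 0.047 for Syn. The wider presynaptic call (Csp) was lost, leaving 0, with edgeR (q = 0.109), edgeR with the replicate block (q = 0.136), total scaling (−0.12, q = 0.736) and both libraries out (−0.24, q = 0.524). Single libraries left out gave 0 to 2, with Syngr, a vesicle membrane protein, called without Pcl_SD replicate 2 (−0.24, q = 0.0439).

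Same-numbered libraries did not deviate together (correlations 0.033, −0.037 and −0.10 over 11486 genes), and no library correlated best with its own number. With the replicate block in DESeq2, 0 members were called, 10 passed equivalence, their median was −0.085, and the wider counts were 1 and 45. Over all genes, calls numbered 2067, against 1355 with both libraries out and 1443 to 2532 with single libraries left out. The longest transcript length put 2 members at another rank. Of the single-gene comparisons, 140 kept direction and call, 20 turned in sign, 2 gained a call and 6 lost one.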

Other observations

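Ratios between members within a library were chosen after values were seen and not tested. They did not overlap between diets for 5 of the 45 pairs of members (11.1%). Of single genes 24.1% did not overlap, and of the well counted ones 16.0%. Single genes are not a like measure, no share was computed for ratios of other genes, and the pairs share members. The separation of a pair is thus given as values only. nSyb to Syt1, both on the vesicle membrane, was 1.18 to 1.26 in Pcl_CD and 1.07 to 1.15 in Pcl_SD, and did not overlap between diets. Syx1A to Rop, which bind each other, was 1.84, 1.96 and 2.01 in Pcl_CD and 1.81, 1.73 and 1.74 in Pcl_SD, again without overlap. The ratio of cpx to brp was 4.24, 3.61 and 4.16 in Pcl_CD and 3.96, 3.31 and 3.17 in Pcl_SD, and overlapped.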
